A study of Mus musculus with 12 samples.

Results

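A set of 7 transcription factor genes, 7 of 31053 genes in the expression matrices, were followed in islet T cells of pre-diabetic NOD mice: Tcf7, Lef1, Id3, Bach2, Satb1, Myb and Foxp1. They were listed as factors of naive and stem-like T cells, and the list was drawn up with earlier results of these data known, although its rule names no measured value. The question addressed was which of them were still transcribed in cells with mRNA of the PD-1 gene Pdcd1 or in cells of expanded clones. All groups came from the same 4 biological replicates of female, 12-week-old mice of the NOD strain, which develop autoimmune diabetes spontaneously. Whether 1 replicate was 1 mouse or pooled mice is not given in the labels. No other strain, age, tissue or treatment was compared, so every contrast is between cells of the same islets. Live cells stained for the TCR beta chain had been sorted and read by 5' CITE-seq, in which antibody tags are counted in each droplet along with its mRNA, beside a library of T cell receptor (TCR) contigs.

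Cells were grouped by lineage in each library. A CD8 cell had fewer than 20 CD4 antibody counts and at least 2 UMIs (unique molecular identifiers, each standing for 1 captured molecule) of Cd8a and Cd8b1. A CD4 conventional cell had at least 40 CD4 antibody counts, no UMI of Cd8a or Cd8b1 and none of Foxp3, and a regulatory T cell (Treg) was the same with at least 1 UMI of Foxp3. Each lineage was split by antibody counts of CD62L, the lymph node homing receptor (at most 3, or at least 10), by Pdcd1 UMIs (0, or at least 1) and by clone size (1 cell, or at least 2 cells with the same receptor in a library). This gave 4242 CD8 cells, 10922 CD4 conventional cells and 1177 Treg. Pdcd1 UMIs were found in 1142 CD8 cells, 2022 CD4 conventional cells and 410 Treg. Clones of 2 or more cells held 1193, 2243 and 251 cells.

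TCF-1, the product of Tcf7, and its relative LEF1 bind the same DNA motif and are needed early in T cell development. In mature cells they are high in naive and central memory cells, and TCF-1 marks the self-renewing cells that sustain responses in chronic infection and tumours. ID3 binds E proteins and keeps them from DNA. BACH2 represses effector genes, SATB1 is a chromatin organiser of developing and naive T cells, FOXP1 is a forkhead repressor that holds naive cells quiescent, and MYB supports stem-like memory and is also active in dividing progenitors. PD-1 appears after T cell receptor stimulation and stays on exhausted cells and on follicular helper cells.

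The 4 mRNA libraries held 4136 to 8718 barcodes with 26861163 to 37834174 RNA UMIs, of which 3295 to 7295 barcodes per library and 22512 in all were kept. Pairs of libraries shared 36 to 102 barcodes. In replicates 3 and 4, 37.5% and 30.6% of the kept barcodes had fewer than 20 counts of the CD11a antibody, against 4.19% and 5.43% in replicates 1 and 2. The summed level of 5 T cell genes (Cd3d, Cd3e, Cd3g, Trac and Trbc2) was 3864 to 4243 CPM (UMIs of a gene per 1000000 UMIs of the summed cells) in CD8 cells without a Pdcd1 UMI and 3535 to 4044 in those with one. Cells with a Pdcd1 UMI were read more deeply: median UMIs per cell ran from 3438 to 4702 over the libraries in CD8 cells without and 6043 to 8681 in those with one, and from 2873 to 3760 and 4355 to 5794 in CD4 conventional cells. A cell without a Pdcd1 UMI can still make PD-1, and 1 UMI can be free RNA. The depth difference moves with every Pdcd1 contrast below, so levels are given in CPM. Shares of cells with a UMI of a factor were compared after thinning to 1500 UMIs per cell. The shares of CD62L-high and of cycling cells were not thinned.

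The gates on protein rested on designed antibody tags, printed here because they decide which cells were called CD8, CD4 or CD62L-high.
CD4 tag, clone RM4-5: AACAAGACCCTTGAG
CD62L tag, clone MEL-14: TGGGCCTAAGTCATC

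Of the genes, 4 have 250-base windows upstream of a RefSeq transcript start (GRCm38.p6) with the core motif of TCF-1 and LEF1, searched as CTTTGA or CTTTGT on both strands. Such a motif was in 27.6% of 32851 windows of this kind over all genes and in at least 1 window of 30.8% of 27025 genes. It was in 1 of 4 windows of Lef1, 1 of 1 of Bach2, 2 of 5 of Satb1 and 2 of 3 of Foxp1, and in none of the 2 of Tcf7, the 1 of Id3 and the 1 of Myb, so 6 of the members' 17 windows held it. The forkhead motif TGTTTAC, in 3.17% of all windows, was in no window of the 7 genes. For each gene with a motif the window with most of them, or the first listed of those with equal numbers, is shown 5' to 3' on the gene's strand, with the motif in capitals, to show what the start regions of these 4 genes hold. The 2 Satb1 windows with the motif overlap and share the same match. A match is a string of letters, not a measured binding site, and nothing is read from it about the levels below.
Lef1 window, chr3:131156044-131156293, plus strand: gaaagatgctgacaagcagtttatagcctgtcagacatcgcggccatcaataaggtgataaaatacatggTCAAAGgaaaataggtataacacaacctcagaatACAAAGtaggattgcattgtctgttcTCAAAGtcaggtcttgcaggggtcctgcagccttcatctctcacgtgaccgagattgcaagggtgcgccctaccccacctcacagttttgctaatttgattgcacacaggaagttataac
Bach2 window, chr4:32417185-32417434, plus strand: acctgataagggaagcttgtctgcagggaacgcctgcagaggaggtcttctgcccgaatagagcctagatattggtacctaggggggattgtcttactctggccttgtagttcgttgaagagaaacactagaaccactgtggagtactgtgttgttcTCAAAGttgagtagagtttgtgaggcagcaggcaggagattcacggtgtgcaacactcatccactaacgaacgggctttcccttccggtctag
Satb1 window, chr17:51812185-51812434, minus strand: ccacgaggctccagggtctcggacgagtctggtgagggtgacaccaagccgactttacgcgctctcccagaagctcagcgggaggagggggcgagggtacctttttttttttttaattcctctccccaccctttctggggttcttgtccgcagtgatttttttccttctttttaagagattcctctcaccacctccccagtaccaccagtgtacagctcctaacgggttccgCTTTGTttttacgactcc
Foxp1 window, chr6:99266516-99266765, minus strand: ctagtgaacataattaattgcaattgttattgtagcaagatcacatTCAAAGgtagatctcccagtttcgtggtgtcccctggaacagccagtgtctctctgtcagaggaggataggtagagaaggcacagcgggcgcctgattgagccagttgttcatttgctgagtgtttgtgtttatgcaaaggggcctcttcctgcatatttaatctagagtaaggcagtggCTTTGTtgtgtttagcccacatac
All 4 windows lie inside the annotated genes, at chr3:131110297-131224357 for Lef1, chr4:32238413-32586109 for Bach2, chr17:51736187-51833290 for Satb1 and chr6:98925342-99522746 for Foxp1, upstream of alternative starts. Tcf7 spans chr11:52246527-52283383, Id3 chr4:136143822-136145392 and Myb chr10:21124930-21160984.

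The label naive factor was first checked against CD62L protein. In CD8 cells Lef1, Bach2, Satb1, Foxp1 and Id3 were higher in CD62L-high than in CD62L-low cells, 5 of the 7, where 19.5% of all genes tested were higher. Lef1 differed most, by a log2 fold change of 1.91 ± 0.18 (SE, adjusted p = 5.2e-04). Tcf7 differed by 0.64 ± 0.21 (SE, adjusted p = 0.061) and Myb by −0.02 ± 0.13 (SE, adjusted p = 0.997), neither past the threshold of an adjusted p of 0.05 (edgeR's quasi-likelihood test, Benjamini-Hochberg adjustment over all genes tested). Among CD4 conventional cells Satb1 (2.19 ± 0.05), Lef1 (2.12 ± 0.04), Bach2 (1.75 ± 0.07), Foxp1 (1.24 ± 0.05) and Tcf7 were higher, 5 of 7 against 23.3% of all genes. The Tcf7 difference was small, 0.22 ± 0.05 (SE, adjusted p = 7.9e-04), higher in 3 of 4 libraries with overlapping levels, and it was 0.08 (adjusted p = 0.187) when scaled by library size only and 0.09 (adjusted p = 0.0945) without barcodes above 2 times the median UMI count. In CD8 cells Tcf7 passed without replicate 1 (0.74, adjusted p = 0.0233) or 2 (0.83, adjusted p = 0.013), and Id3, at 0.77 ± 0.16 (SE, adjusted p = 0.00276), did not pass without cycling cells (0.15, adjusted p = 0.788). In Treg Bach2 (1.93 ± 0.21), Lef1 (1.54 ± 0.14), Foxp1 (1.38 ± 0.14) and Satb1 (0.93 ± 0.17) were higher, 4 of 7 against 1.87% of all genes. Thus Lef1, Bach2, Satb1 and Foxp1 followed CD62L in all 3 lineages, while Myb was not called in any (CD4 conventional −0.14 ± 0.15, Treg 0.34 ± 0.28).

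In CD8 cells with a Pdcd1 UMI, 6 of the 7 factors were lower and 1, Myb, was higher, where 26.8% of all genes tested were lower and 26.6% higher. With so many genes called in this contrast, the sizes below describe the factors better than the calls. With cells thinned to 1500 UMIs, and likewise with no replicate block, 4 of the 7 passed, Lef1, Bach2, Satb1 and Foxp1. Those 4 passed in all 17 alternatives, but Tcf7 and Id3 in only 8 each. The Id3 values ran from −0.43 to 0.40 over these alternatives. The thinned fits left out cells under 1500 UMIs and redrew the gates on Cd8a, Cd8b1, Foxp3 and Pdcd1 from the thinned counts. Cells could thereby drop out or change group. Within the CD4 conventional lineage, 4 factors were lower and Myb higher, against 29.6% and 29.4% of all genes. In Treg 4 were lower and none higher, against 11.8% and 13.9%. The 4 that were lower in every lineage were Lef1, Bach2, Satb1 and Foxp1.

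Lef1, the partner of TCF-1, had its largest fitted fall in CD8 cells. It stood at 824, 596, 559 and 490 CPM in replicates 1 to 4 in CD8 cells without a Pdcd1 UMI and at 87.2, 86.9, 88.6 and 72.6 in those with one. The groups were far apart in every library, and the fitted level was 7.67-fold lower (log2 −2.94 ± 0.11 SE, adjusted p = 3.0e-07). In CD4 conventional cells it went from 919, 593, 664 and 625 to 136, 94.3, 158 and 144, a 5.63-fold fall (log2 −2.49 ± 0.18 SE, adjusted p = 6.6e-04) with no overlap. In Treg it went from 295, 228, 274 and 181 to 150.3, 99.2, 103 and 125, 2.01-fold lower (log2 −1.01 ± 0.12 SE, adjusted p = 1.8e-06). None of the 7 factors passed in Treg once cells were thinned to 1500 UMIs, where Lef1 was −0.78 (adjusted p = 0.763). Over the alternatives as few as 3 of all genes were called in this contrast, against 2182 reported. The lost calls are therefore not read as a result about the factors.

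Satb1 had its largest fitted fall in CD4 conventional cells. Its levels were 402, 271, 322 and 279 CPM without and 55.5, 21.4, 55.0 and 66.3 with a Pdcd1 UMI, a 6.94-fold fall (log2 −2.79 ± 0.29 SE, adjusted p = 0.00377). Replicate 2 had the lowest level among cells with a Pdcd1 UMI, and no library overlapped with the other group. In CD8 cells the same split gave 315, 256, 240.3 and 243 and 88.0, 62.1, 79.4 and 99.0 (3.39-fold lower, log2 −1.76 ± 0.13).

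Bach2 and Foxp1, both repressors, were lower with a Pdcd1 UMI in each lineage. Bach2 in CD8 cells went from 118, 90.2, 69.7 and 69.8 to 22.9, 34.6, 18.1 and 15.7 CPM, 4.12-fold lower (log2 −2.04 ± 0.14 SE, adjusted p = 2.9e-06). Among CD4 conventional cells Bach2 went from 144, 115, 110.2 and 97.1 to 35.8, 38.8, 30.2 and 29.1, 3.76-fold lower (log2 −1.91 ± 0.08 SE, adjusted p = 5.6e-12). Foxp1 in CD8 cells went from 395, 303, 269 and 253 to 109, 107, 70.3 and 62.5, 3.78-fold lower (log2 −1.92 ± 0.08 SE, adjusted p = 6.2e-09). None of these groups overlapped. Within the CD4 conventional lineage, Foxp1 was 2.66-fold lower (log2 −1.41 ± 0.06), in Treg Bach2, Foxp1 and Satb1 were lower by log2 −1.62 ± 0.19, −1.21 ± 0.11 and −1.02 ± 0.13.

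Tcf7, which encodes TCF-1, differed little in CD4 conventional cells. It stood at 424, 397, 382 and 463 CPM in replicates 1 to 4 without a Pdcd1 UMI and at 425, 462, 366 and 397 with one. The groups overlapped, 2 libraries were higher and 2 lower, and the log2 fold change was −0.12 ± 0.06 (SE, adjusted p = 0.0737). After thinning, 42.9% ± 2.27 of the cells without and 42.4% ± 2.54 of those with a Pdcd1 UMI had a Tcf7 UMI. The share was 0.172% ± 0.131 in barcodes with B cell genes, which should lack it. Those barcodes were chosen to have no CD3 UMI and no TRB chain, which leaves out droplets with mixed T cell RNA. In CD8 cells Tcf7 was lower with a Pdcd1 UMI, at 251, 292, 126 and 151 against 337, 331, 299 and 321. All 4 libraries were lower and the groups did not overlap, but replicates 3 and 4 fell further than replicates 1 and 2 (1.77-fold over the 4, log2 −0.82 ± 0.22 SE, adjusted p = 0.0422). The call was lost without replicate 1 (−0.92, adjusted p = 0.121), without replicate 4 (−0.71, adjusted p = 0.111), without cycling cells (−0.32, adjusted p = 0.296) and with cells thinned to equal depth (−0.38, adjusted p = 0.174). In Treg Tcf7 stood at 174, 141, 189.9 and 150.4 without and 106, 105, 124 and 175 with a Pdcd1 UMI, a log2 difference of −0.35 ± 0.14 (SE, adjusted p = 0.076) that passed without replicate 4 (−0.58, adjusted p = 6.6e-04). In CD4 conventional cells it passed without replicate 2 (−0.19, adjusted p = 0.00319).

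Id3, the E protein inhibitor, differed by small amounts across the Pdcd1 split. In CD8 cells it stood at 76.3, 73.8, 56.1 and 66.5 CPM without and 71.9, 81.8, 36.5 and 52.1 with a Pdcd1 UMI. In all, 3 of 4 libraries were lower and the groups overlapped; the log2 fold change was −0.32 ± 0.11 (SE, adjusted p = 0.0277), and the direction reversed without cycling cells (0.40, adjusted p = 0.00804). Among CD4 conventional cells the levels were 59.2, 46.7, 51.3 and 67.3 and 62.2, 72.3, 81.8 and 58.6, a difference of 0.18 ± 0.16 (SE, adjusted p = 0.379). Without replicate 3 or 4 the CD8 difference did not pass (−0.20 (adjusted p = 0.17) and −0.28 (adjusted p = 0.103)), and without replicate 4 the CD4 conventional one did (0.35, adjusted p = 0.0323).

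Myb was the only member called higher with a Pdcd1 UMI. Within the CD4 conventional lineage, it stood at 15.9, 11.0, 16.3 and 11.9 CPM without and 38.4, 23.5, 29.8 and 30.8 with a Pdcd1 UMI. The groups did not overlap, and the level was 2.06-fold higher (log2 1.04 ± 0.11 SE, adjusted p = 6.4e-07). In CD8 cells the levels were 35.7, 27.0, 41.4 and 29.7 and 57.1, 34.1, 54.8 and 36.4, higher in 4 of 4 libraries but with overlap (1.28-fold, log2 0.35 ± 0.10 SE, adjusted p = 0.00989). With cells thinned to 1500 UMIs the CD4 conventional difference was 0.48 (adjusted p = 0.334), and by DESeq2 the CD8 one was 0.36 (adjusted p = 0.0887). The 4 libraries with a Pdcd1 UMI in Treg gave 71.1, 41.9, 34.97 and 84.0, a spread that left the difference of 0.55 ± 0.21 short of the threshold (adjusted p = 0.0618). It passed without replicate 2 (0.70, adjusted p = 0.0295) or 3 (0.74, adjusted p = 0.00798).

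**Figure D1:**
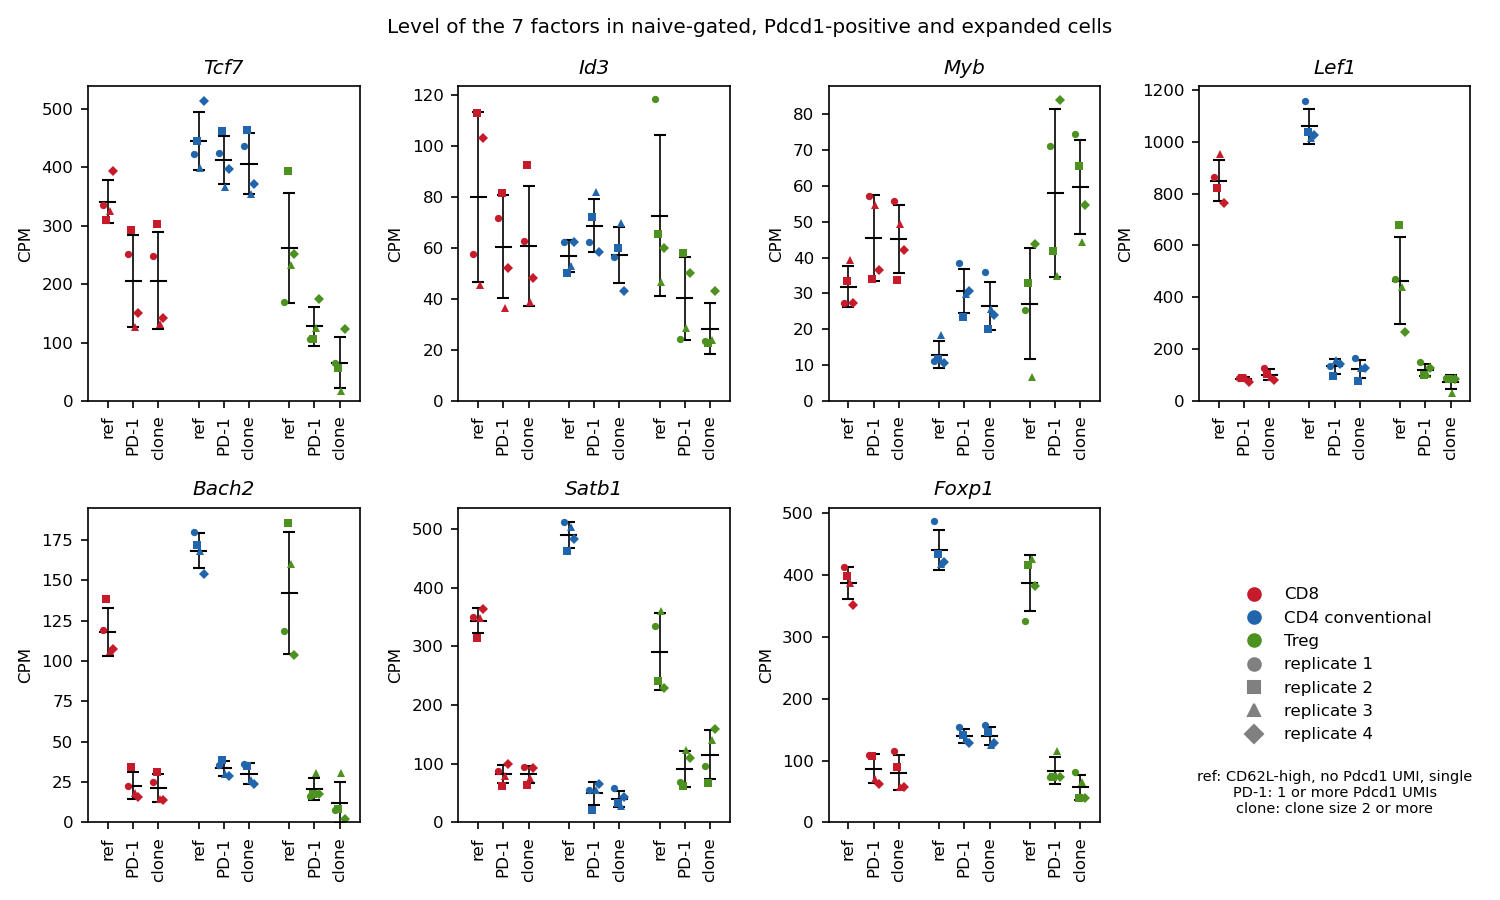
Level of each factor in CPM (vertical axis, 1 panel a gene) in CD8 cells (red), CD4 conventional cells (blue) and Treg (green). Within each lineage the 3 columns are CD62L-high single cells without a Pdcd1 UMI (ref), cells with a Pdcd1 UMI (PD-1) and cells of clones of 2 or more (clone). Each point is 1 library, the line is the mean and the bar 1 SD over 4 libraries, cut off at 0. Tcf7 in CD4 conventional cells stays between 354 and 514 in all 3 columns, while Lef1 drops to 133 in cells with a Pdcd1 UMI.

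Expanded clones, groups of cells with 1 receptor, were compared with single cells in the same way. In CD8 clones of 2 or more, Lef1, Bach2, Satb1 and Foxp1 were lower than in single cells by 7.32-, 5.196-, 3.73- and 4.84-fold, 4 of 7 where 26.1% of all genes were lower. In CD4 conventional clones the same 4 were lower by 6.36-, 4.27-, 9.13- and 2.67-fold (25.7% of all genes), and Myb was higher (25.4% of all genes). Satb1 stood at 393, 282, 343 and 310.5 CPM in single CD4 conventional cells and at 58.3, 32.4, 27.8 and 42.5 in clones. In Treg clones Lef1 (−1.58 ± 0.18), Id3 (−1.18 ± 0.21), Bach2 (−2.51 ± 0.32) and Foxp1 (−1.63 ± 0.18) were lower on the log2 scale, 4 of 7 against 3.92% of all genes, and Satb1 differed by −0.44 ± 0.16 (SE, adjusted p = 0.101), past the threshold without replicate 4 (−0.69, adjusted p = 0.00632).

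Tcf7 in CD4 conventional clones stood at 436, 463, 354 and 371 CPM against 412, 402, 389.6 and 495 in single cells. Replicates 1 and 2 were higher in the clones and replicates 3 and 4 lower, and the log2 difference was −0.19 ± 0.08 (SE, adjusted p = 0.0829). It passed the threshold without replicate 2 (−0.27, adjusted p = 0.0105), with 1 cell per clonotype (−0.34, adjusted p = 0.00244) and without the filter on low counts (−0.21, adjusted p = 2.9e-04). In CD8 clones Tcf7 stood at 249, 302, 132 and 141 against 344, 319, 327 and 394 in single cells. Every library was lower and the groups did not overlap, yet the spread of the fall over the libraries left an adjusted p of 0.0888 (log2 −0.94 ± 0.32); DESeq2 gave −0.94 (adjusted p = 0.0117), and edgeR without replicate 2 −1.19 (adjusted p = 0.0421). In Treg clones it stood at 64.6, 56.9, 17.1 and 122 against 196, 174, 184 and 174, again lower in 4 of 4 libraries without overlap. The log2 difference was −1.44 ± 0.36 (SE, adjusted p = 0.0976), and −1.67 (adjusted p = 0.0295) by DESeq2. It passed without replicate 3 (−1.23, adjusted p = 0.00672) or 4 (−1.84, adjusted p = 4.9e-05), and in all in 11 of 18 alternatives. Id3 differed between clones and single cells by −0.46 ± 0.22 (SE, adjusted p = 0.141) in CD8 cells, where it passed without replicate 2 (−0.72, adjusted p = 2.3e-04), and −0.28 ± 0.17 (SE, adjusted p = 0.227) in CD4 conventional cells. Myb in CD4 conventional clones stood at 35.9, 20.2, 25.7 and 24.1 against 18.7, 12.4, 18.3 and 17.4 (1.45-fold higher, log2 0.53 ± 0.12 SE, adjusted p = 0.00113), and in CD8 clones it differed by 0.07 ± 0.14 (SE, adjusted p = 0.691).

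**Figure D2:**
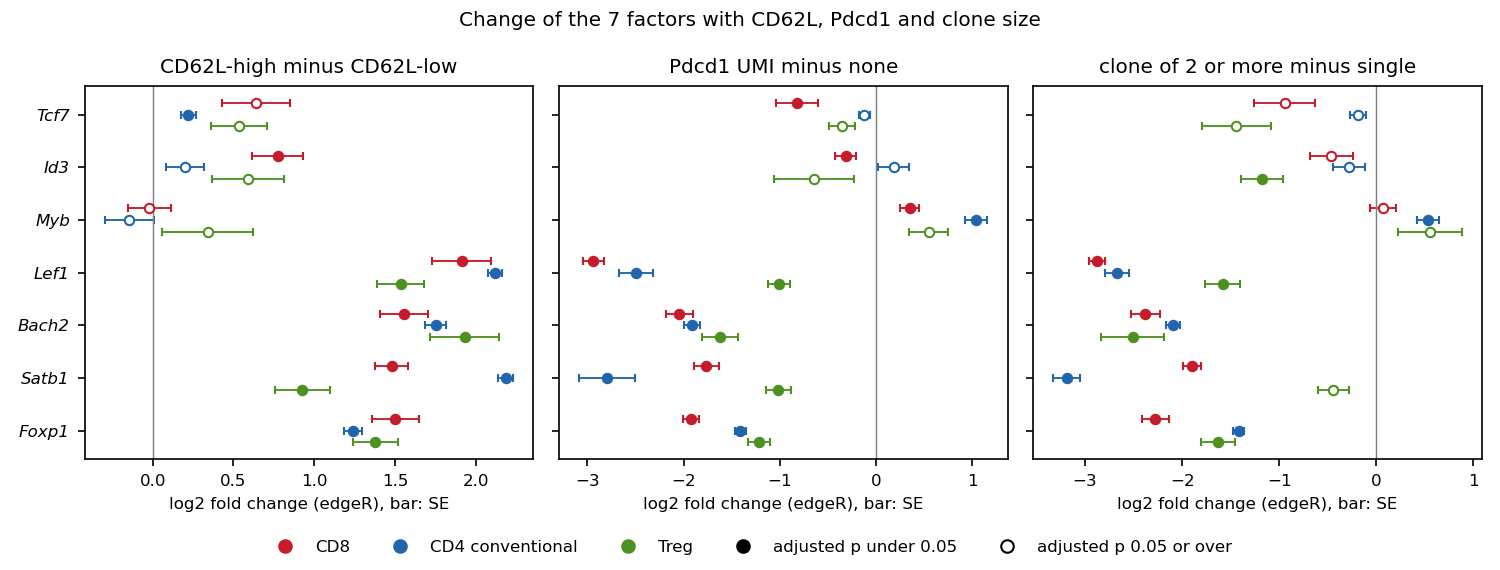
Log2 fold change (horizontal axis, bars 1 SE, edgeR) of the 7 factors in 3 comparisons, 1 panel each: CD62L-high minus CD62L-low, Pdcd1 UMI minus none, and clones of 2 or more minus single cells. Colours are the lineages, filled points have an adjusted p under 0.05 and open points do not. Lef1, Bach2, Satb1 and Foxp1 lie right of 0 in the first panel and left of 0 in the other 2, and Satb1 in CD4 conventional clones reaches −3.19.

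Set against CD62L-high single cells without a Pdcd1 UMI of the same lineage and library, the share of the level still measured separated the factors. In CD4 conventional cells with a Pdcd1 UMI, 93.4% ± 11.9 (SD, n = 4) of the Tcf7 level was measured and 123% of that of Id3. For Foxp1 it was 31.7% ± 0.945, for Bach2 19.8% ± 1.99, for Lef1 12.6% ± 2.84 and for Satb1 10.03% ± 3.85. Myb stood at 249.9% ± 84.9. In CD8 cells with a Pdcd1 UMI the Tcf7 level was 61.5% ± 27.6, running from 38.2% to 94.1% over the libraries, and Lef1 kept 9.87% ± 0.588. There Bach2, Foxp1 and Satb1 kept 18.9%, 22.3% and 23.7%, and their ranges over the libraries overlapped. Treg with a Pdcd1 UMI kept 53.1% ± 18.8 of Tcf7, 32.1% of Satb1 and 29.2% of Lef1. In CD62L-low CD4 conventional clone cells with a Pdcd1 UMI the share of Satb1 was 3.09% ± 2.08, and Tcf7 in the same cells stood at 93.8% ± 18.4.

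CD62L-high cells made up 37.5% of CD8 cells without a Pdcd1 UMI and 5.59% of those with one, and 41.8% and 8.75% of CD4 conventional cells. The comparisons were therefore repeated among CD62L-low cells alone. Lef1 was still lower with a Pdcd1 UMI, by log2 −2.66 ± 0.37 (SE, adjusted p = 0.0146) in CD8, −1.99 ± 0.21 (SE, adjusted p = 0.0032) in CD4 conventional cells and −0.70 ± 0.13 (SE, adjusted p = 0.00137) in Treg. Bach2, Satb1 and Foxp1 were lower too in each lineage, 3 members beside Lef1 in each and Tcf7 in CD8 cells. In Treg none of these calls passed with thinned cells (Bach2 was left out by the filter there), without barcodes above 2 times the median UMI count or without cycling cells, where Lef1 was −0.62 (adjusted p = 0.9), −0.61 (adjusted p = 0.277) and −0.64 (adjusted p = 0.0951). Satb1 in these Treg passed in 7 of 17 alternatives. It was higher with a Pdcd1 UMI in replicate 3 (0.15), and its groups overlapped. Background shares of lower genes were 17.4%, 23.2% and 4.35%. Satb1 in CD62L-low CD4 conventional cells was lower by −2.46 ± 0.33 with a Pdcd1 UMI and by −2.90 ± 0.24 in clones. Tcf7 in CD62L-low CD4 conventional cells differed by 0.03 ± 0.06 (SE, adjusted p = 0.646) with a Pdcd1 UMI and by −0.10 ± 0.07 (SE, adjusted p = 0.337) in clones. With a Pdcd1 UMI it passed in 3 of 17 alternatives, whose values ran from −0.02 to 0.26. In clones it passed in 2 of 18, with values from −0.25 to 0.14. In CD62L-low CD8 cells Tcf7 was lower with a Pdcd1 UMI (−0.84 ± 0.18 SE, adjusted p = 0.0181) and differed by −1.03 ± 0.33 (SE, adjusted p = 0.101) in clones. The Pdcd1 call was kept in 11 of 17 alternatives. Myb in CD62L-low cells was higher in CD4 conventional cells (0.80 ± 0.19 with a Pdcd1 UMI, 0.64 ± 0.17 in clones, against 23.8% of all genes higher with a Pdcd1 UMI) and differed by only 0.08 ± 0.13 (SE, adjusted p = 0.645) in CD8 cells. Clones against single cells were also compared, with 17.6% and 15% of all genes lower in CD8 and CD4 conventional cells and 14.7% higher in the latter; the same 4 factors were lower in both. Among CD62L-low Treg the comparison of clones used 3 libraries, Bach2 was left out by the filter on low counts, and of the other 6 members Lef1 alone was lower (−1.27 ± 0.21 SE, adjusted p = 0.0486), where 0.0668% of all genes were. Single libraries decided several of these calls. With a Pdcd1 UMI, Lef1 in CD8 cells did not pass without replicate 2 (−2.67, adjusted p = 0.069) or 3 (−2.79, adjusted p = 0.0535), nor Tcf7 without 1 (−0.86, adjusted p = 0.153) or 4 (−0.80, adjusted p = 0.0868). Satb1 did not pass without replicate 1 in CD8 (−1.22, adjusted p = 0.0778) or CD4 conventional cells (−2.42, adjusted p = 0.0565). In CD4 conventional clones Lef1 was −2.05 (adjusted p = 0.0691) without replicate 1 and Myb 0.54 (adjusted p = 0.0735) without replicate 1 and 0.57 (adjusted p = 0.0686) without replicate 3. In CD8 clones Tcf7 passed without replicate 2 (−1.33, adjusted p = 2.4e-04). In Treg with a Pdcd1 UMI, Bach2 and Satb1 did not pass without replicate 1 (−0.94 (adjusted p = 0.064) and −0.50 (adjusted p = 0.103)), and of clones nothing passed for Lef1 without replicate 1 (−1.03, adjusted p = 0.999). Without cycling cells Myb with a Pdcd1 UMI was 0.27 (adjusted p = 0.353) in CD62L-low CD4 conventional cells.

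Lef1 was also followed over all 3 splits at once. Single CD8 cells without a Pdcd1 UMI held 850.4 ± 78.8 (SD, n = 4) CPM of Lef1 when CD62L-high and 693 ± 92.6 when CD62L-low. Among CD4 conventional cells the same pair was 1059 ± 67.1 and 512 ± 84.3, against the 75.9 ± 22.3 of clone cells with one. These are levels, with no test of the pairs.

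Lineages were then compared directly among cells with a Pdcd1 UMI. Tcf7 was 2.09-fold lower in CD8 than in CD4 conventional cells (log2 −1.06 ± 0.19 SE, adjusted p = 0.0161), with no overlap between 251, 292, 126 and 151 and 425, 462, 366 and 397 CPM. It was 3.28-fold lower in Treg than in CD4 conventional cells (log2 −1.72 ± 0.18 SE, adjusted p = 0.00346). CD8 cells had in addition lower Lef1 (−0.64 ± 0.13), Bach2 (−0.58 ± 0.13) and Foxp1 (−0.70 ± 0.11) and higher Satb1 (0.78 ± 0.15) and Myb (0.60 ± 0.11), 4 lower and 2 higher against 20.1% and 20.5% of all genes. Treg had lower Bach2 (−0.74 ± 0.19) and Foxp1 (−0.77 ± 0.12) and higher Satb1 (0.89 ± 0.16) and Myb (0.90 ± 0.16), with Tcf7 3 lower and 2 higher against 9.29% and 11.3%. Without cycling cells the Tcf7 differences were −0.62 (adjusted p = 0.00855) and −1.48 (adjusted p = 4.1e-09), while those of Myb turned to −0.26 (adjusted p = 0.526) and −0.61 (adjusted p = 0.306). Bach2 and Foxp1 in CD8 against CD4 conventional cells were then −0.04 (adjusted p = 0.926) and −0.15 (adjusted p = 0.405).

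Whether an effect differed between lineages was tested as an interaction, and 12 of 42 such differences passed. With a Pdcd1 UMI, Myb rose less (−0.66 ± 0.15) and Foxp1 fell further (−0.49 ± 0.14) in CD8 than in CD4 conventional cells, 2 of 7 against 5.35% of all genes. The Tcf7 effect differed by −0.65 ± 0.23 (SE, adjusted p = 0.151) and was not called, so its fall in CD8 cells was not shown to differ from the change in CD4 conventional cells. Nor were the effects on Satb1 (1.05 ± 0.31 SE, adjusted p = 0.0924) and Lef1 (−0.45 ± 0.24 SE, adjusted p = 0.335) shown to differ between these lineages. In Treg, Lef1 (1.48 ± 0.23) and Satb1 (1.80 ± 0.36) fell less than in CD4 conventional cells (10.4% of all genes). In clones, Satb1 fell less (1.31 ± 0.17) and Foxp1 further (−0.85 ± 0.15) in CD8 cells (13.2% of all genes), and in Treg Lef1 (1.15 ± 0.30) and Satb1 (2.70 ± 0.32) fell less and Tcf7 further (−1.24 ± 0.31 (SE, adjusted p = 0.033); 9.44% of all genes). For CD62L, the Satb1 difference was smaller in CD8 cells (−0.71 ± 0.12; 5.27% of all genes) and those of Lef1 (−0.59 ± 0.15) and Satb1 (−1.25 ± 0.19) smaller in Treg (5.33%). Many of these calls were lost when a library was left out. The Tcf7 difference of Treg clones was −1.14 (adjusted p = 0.246), −1.07 (adjusted p = 0.208) and −1.06 (adjusted p = 0.0595) without replicate 1, 2 or 3. The Foxp1 difference of CD8 cells with a Pdcd1 UMI was −0.51 (adjusted p = 0.0647), −0.52 (adjusted p = 0.153) and −0.44 (adjusted p = 0.176) without replicate 1, 3 or 4. That of Myb was −0.65 (adjusted p = 0.0577) and −0.57 (adjusted p = 0.09) without replicate 2 or 4. In Treg, Lef1 did not pass without replicate 1 or 4, at 1.32 (adjusted p = 0.149) and 1.05 (adjusted p = 0.131) for clones and −0.45 (adjusted p = 0.223) and −0.44 (adjusted p = 0.163) for CD62L. Satb1 in Treg with a Pdcd1 UMI was 1.87 (adjusted p = 0.0515) and 1.72 (adjusted p = 0.0941) without replicate 1 or 3.

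By the number of Pdcd1 UMIs in a cell, Lef1 in CD8 cells was already low at 1 UMI. In CD8 cells with 0, 1, 2 to 3 and 4 or more Pdcd1 UMIs, Lef1 stood at 617 ± 145 (SD, n = 4), 135 ± 52.5, 71.1 ± 14.5 and 66.8 ± 15.0 CPM, the last 2 within 1 SD of each other. Within the CD4 conventional lineage, Satb1 stood at 319 ± 59.9, 73.9 ± 27.1, 47.6 ± 35.1 and 25.8 ± 6.66. Tcf7 in CD4 conventional cells was level over the 4 classes, at 416 ± 35.3, 414 ± 21.6, 424 ± 71.7 and 393 ± 57.3. In CD8 cells it stood at 322 ± 16.5, 249 ± 76.8, 235 ± 121 and 172 ± 76.5, with neighbouring classes above 0 within 1 SD. More Pdcd1 UMIs are found in deeper cells, so the classes also order the cells by depth.

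**Figure D3:**
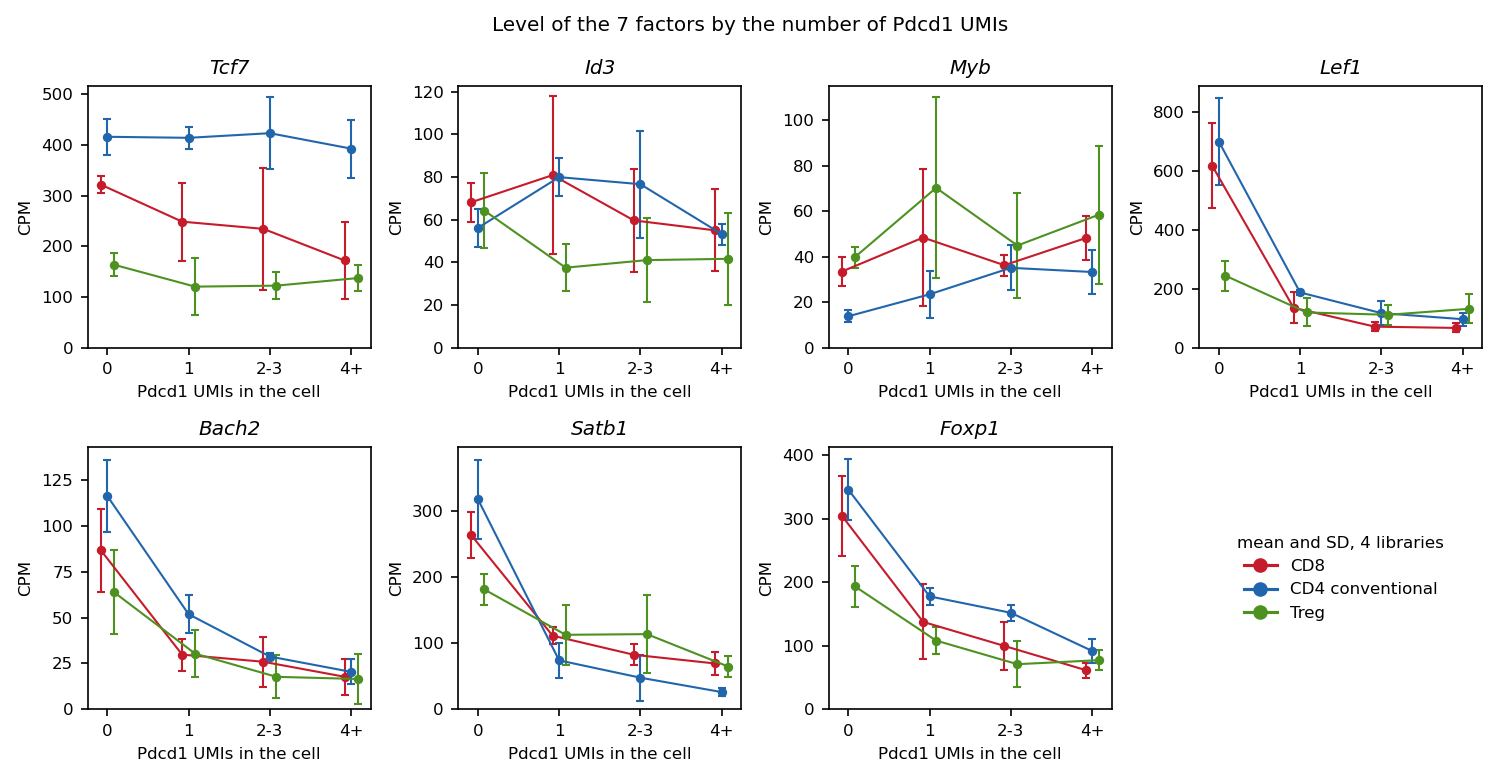
Level of each factor in CPM (vertical axis) by the number of Pdcd1 UMIs in the cell (horizontal axis: 0, 1, 2-3, 4+), points the mean and bars 1 SD over 4 libraries, colours the lineages. The Tcf7 line of CD4 conventional cells is flat, from 416 to 393, and that of Satb1 falls from 319 to 25.8.

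Tcf7 in CD8 cells was also followed by clone size, with no test of the classes. Over clones of 2 or more its log2 difference from single cells was −0.47, −0.08, −1.31 and −1.48 in replicates 1 to 4. Tcf7 stood at 346 ± 33.7 (SD, n = 4) CPM in single cells, 338 ± 28.4 in clones of 2 to 4 and 174 ± 81.0 in clones of 5 or more. The smaller clones thus lay within 1 SD of the single cells. Lef1 in the same classes stood at 679 ± 81.6, 181 ± 69.6 and 69.1 ± 25.4, well below single cells already at 2 to 4. CD4 conventional cells held 425 ± 47.6, 410.2 ± 42.1 and 403 ± 70.3 of Tcf7. Without the largest clone of each library, CD8 clone cells held 221 ± 92.6 and CD4 conventional clone cells 406 ± 50.8.

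Single clones of 10 or more cells show how far clones of one library differed; cells of a clone share an ancestor and are no replicates. Of 25 such CD8 clones, 23 had less Tcf7 than the single cells of their library. Their Tcf7 levels ran from 24.7 over a median of 142 to 421 CPM, and none was at 0. Of 39 CD4 conventional clones, 20 were below the single cells, with levels from 135 over 382 to 758. Lef1 was below the single cells in 25 of these CD8 clones and 39 of the CD4 conventional clones. The largest clone, of 139 cells, was a CD8 clone of replicate 3, where the 7 large CD8 clones had Tcf7 levels from 24.7 to 208. Both Treg clones, of 11 and 14 cells in replicates 1 and 2, had no Tcf7 UMI, where 3 counts would be 36.9 and 16.97 CPM in that order. Satb1 had no UMI in 20 of the 39 CD4 conventional clones and in 1 of the 25 CD8 clones. In those CD4 conventional clones a count of 0 allows levels of up to 7.15 to 144 CPM (3 counts of each clone's UMIs, counting error only), so the deeper ones bound Satb1 more tightly. Bach2 and Foxp1 were below the single cells in all 25 CD8 clones, Id3 in 19 and Myb in 13. In CD4 conventional clones they were below in all 39, Id3 in 29 and Myb in 19.

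**Figure D4:**
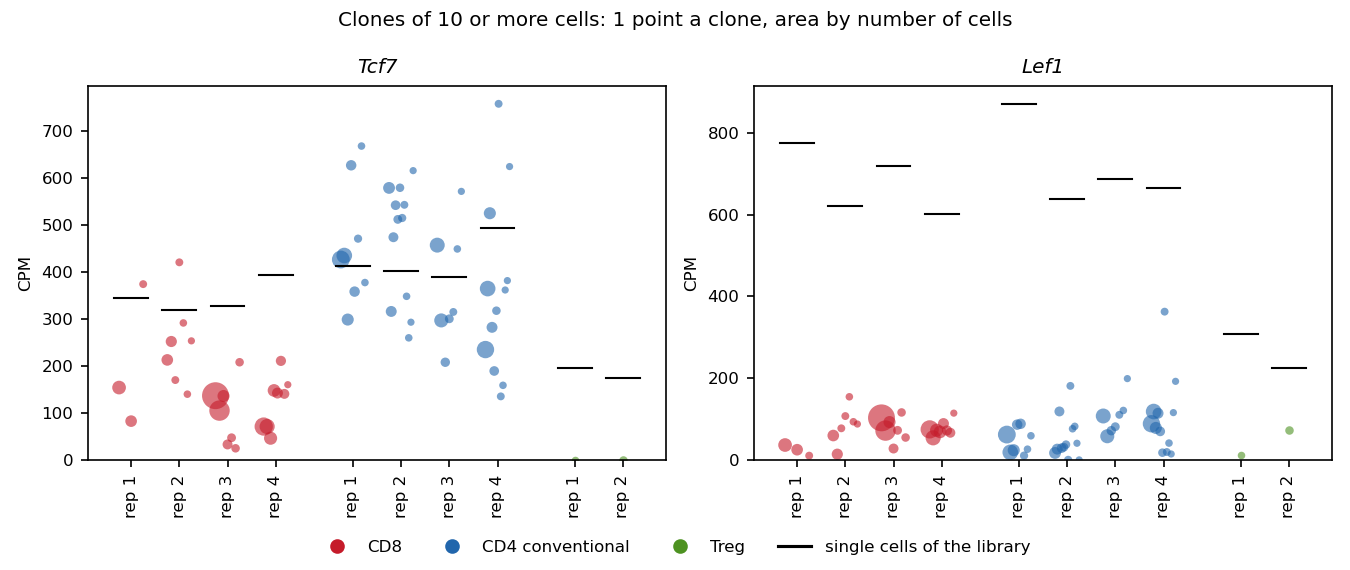
Tcf7 (left) and Lef1 (right) in clones of 10 or more cells, in CPM (vertical axis), by lineage (colour) and replicate (horizontal axis). Each point is 1 clone with its area by the number of cells, and the black line is the level of the single cells of that library. For Tcf7 20 of 39 CD4 conventional clones lie below their line, for Lef1 39.

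The share of cells counted as cycling moved with both splits. It was taken from unthinned counts, so deeper cells reach its cutoff more easily, and the cycling split can also sort cells by depth. Cells with at least 2 UMIs over 10 cycling genes made up 11.4% of CD8 cells without and 47.8% with a Pdcd1 UMI, 6.44% of single and 44.2% of clone CD8 cells, 3.93% and 23.0% of CD4 conventional cells without and with a Pdcd1 UMI, and 13.6% and 40.1% of Treg. Among CD8 cells with a Pdcd1 UMI, Tcf7 stood at 342, 366, 306 and 199 CPM in cells that were not cycling and at 175 ± 79.2 (SD, n = 4) in cycling ones, against 348 ± 18.9 in cells that were not cycling and had no Pdcd1 UMI. Among the cells that were not cycling, replicate 4 stood below the others. Without cycling cells the Tcf7 difference in CD8 clones was −0.32 (adjusted p = 0.131), and in Treg clones −0.78 (adjusted p = 0.0388). In CD4 conventional cells Tcf7 outside the cycle stood at 476 ± 36.3 with and 423 ± 40.5 without a Pdcd1 UMI (0.06, adjusted p = 0.373).

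The mean level of Myb was higher in cycling than in other cells in each lineage. In CD8 cells without a Pdcd1 UMI it was 26.1 ± 6.86 CPM outside and 78.4 ± 67.0 in the cycling cells, where replicate 1 stood at 176, and with a Pdcd1 UMI 18.2 ± 11.9 and 54.3 ± 11.3. Without cycling cells its log2 difference in CD8 cells turned to −0.68 (adjusted p = 0.0646), and among CD62L-low CD8 cells to −1.30 (adjusted p = 9.0e-04). Among CD4 conventional cells Myb remained higher with a Pdcd1 UMI when cycling cells were left out (0.79, adjusted p = 9.5e-04), at 22.4 ± 10.7 against 11.7 ± 2.42, but not in clones (0.30, adjusted p = 0.204). Id3 outside the cycle was higher with a Pdcd1 UMI in CD8 cells (96.3 ± 15.1 against 67.5 ± 8.21) and in CD4 conventional cells (88.4 ± 5.01 against 56.1 ± 10.3; log2 0.56 (adjusted p = 5.2e-04)). Lef1, Bach2, Satb1 and Foxp1 stayed lower in both lineages and both splits under every alternative run, Lef1 in CD8 cells with a Pdcd1 UMI from −3.23 to −2.61 and Satb1 in CD4 conventional clones from −4.06 to −2.58 on the log2 scale.

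**Figure D5:**
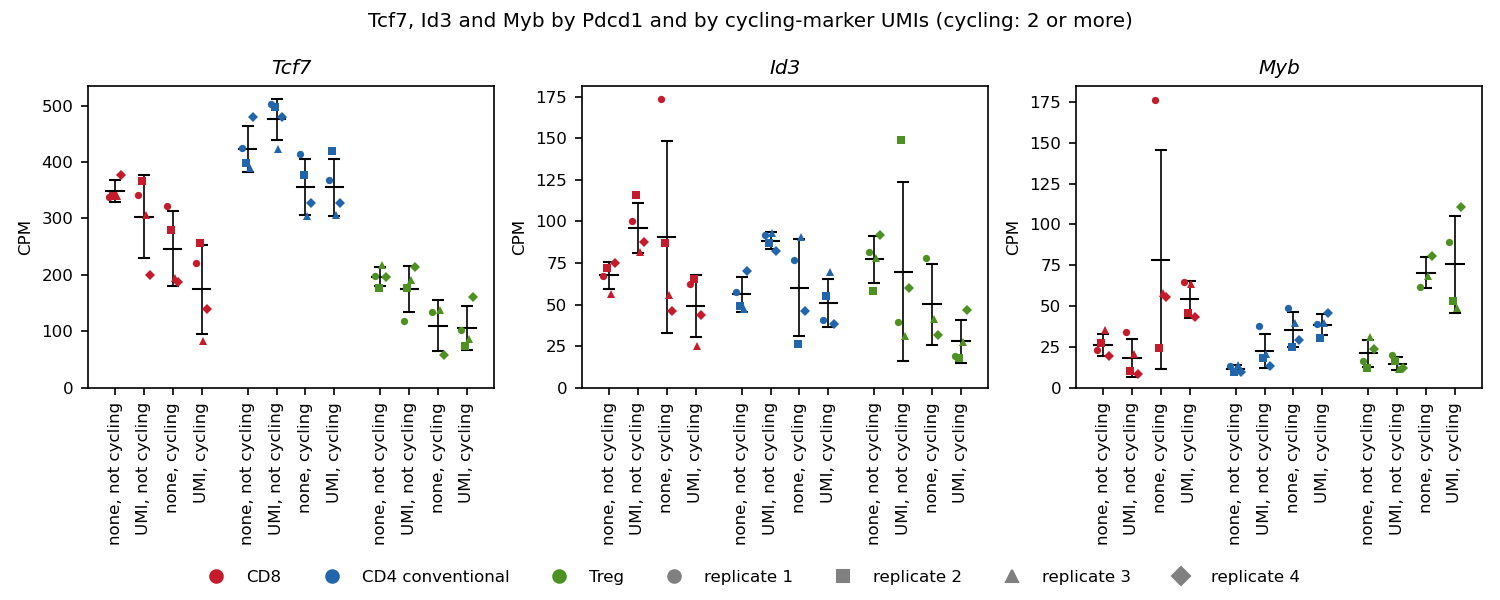
Tcf7, Id3 and Myb in CPM (vertical axis) in cells without or with a Pdcd1 UMI, split by cycling (2 or more UMIs of 10 cycling genes), for CD8 cells (red), CD4 conventional cells (blue) and Treg (green). Points are libraries with at least 20 such cells, lines the mean and bars 1 SD. In CD8 cells with a Pdcd1 UMI, Tcf7 averages 303 in cells that are not cycling and 175 in cycling cells.

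Genes listed as markers of other cells moved with the same splits. The summed level of 5 gamma-delta T cell genes ran from 13.5 to 58.2 CPM over the libraries in CD8 cells without and from 104 to 156 in those with a Pdcd1 UMI, where 4 of the 5 genes had UMIs and Trdv4 had none. Within the CD4 conventional lineage, it was 6.39 to 8.64 without and 6.31 to 13.1. In CD8 cells with a paired TRA and TRB, the gamma-delta sum was 100 to 169 in clones and 7.75 to 26.5 in single cells. It was thus not confined to cells without an alpha-beta receptor. The 6 B cell genes went the other way in CD8 cells, at 19.0 to 32.7 without and 5.83 to 9.31 with a Pdcd1 UMI, where Ebf1 was at 0. The 5 stromal and endothelial genes were at 41.8 to 73.5 without and 10.1 to 24.5 with one, where Col3a1 and Dcn were at 0. In CD4 conventional cells they were at 94.0 to 109.7 and 45.5 to 56.3. In CD62L-high CD4 conventional cells they were at 115 to 122, with Col3a1 and Dcn at 0. The 6 endocrine genes, all with UMIs, were at 4.71 to 954 without and 1.69 to 71.9 with a Pdcd1 UMI in CD8 cells, and at 15.0 to 200.2 and 13.9 to 55.7 in CD4 conventional cells. The 8 acinar genes, all with UMIs, were at 18.8 to 189 and 13.1 to 53.3 in CD8 cells and at 34.2 to 224 and 14.6 to 115 in CD4 conventional cells. The ranges of the endocrine and acinar genes overlapped. Whether these sums came from other cells, and the part of such cells in the results, was not tested. A set of 1137 barcodes had at least 5 UMIs of B cell genes, at least 500 UMIs, no UMI of a CD3 gene and no TRB chain. They were left out of every group. In them Tcf7 stood at 1.79 ± 0.631 (SD, n = 4), Lef1 at 8.56 ± 0.688 and Myb at 1.37 ± 0.368 CPM. Foxp1 (529.6 ± 37.4), Satb1 (273 ± 21.4), Bach2 (238 ± 18.6) and Id3 (85.5 ± 16.0) were abundant there.

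Other genes of the same circuits were described from lists, to be read against the shares of all genes called with a Pdcd1 UMI: 26.8% lower and 26.6% higher in CD8 cells, 29.6% and 29.4% in CD4 conventional cells, and 11.8% and 13.9% in Treg. The lists were chosen with earlier results of these data known, so their counts are descriptions. Klf3, Id2 and Il7r recur across lists. Of 14 naive and recirculation genes, all 12 tested were lower in CD8 cells with a Pdcd1 UMI (median log2 −2.44; over all genes −0.02) and all 13 tested in CD4 conventional cells (median −2.003; over all genes −0.02). Igfbp4, which encodes an IGF-binding protein, was lower by −5.66 ± 0.13 in CD8 cells. In Treg 10 of 11 were lower (median −1.12). Of 29 partners and relatives of the 7 factors, 12 of 24 tested were lower and 5 higher in CD8 cells (median −0.25), and 15 of 25 lower and 5 higher in CD4 conventional cells (median −0.40); the shares that were higher were below those over all genes. Tle1, a corepressor that TCF-1 and LEF1 recruit, was lower by −3.13 ± 0.48 and −3.14 ± 0.38, and the zinc finger repressor Klf3 by −1.96 ± 0.08 and −1.55 ± 0.08. Mybl2, the MYB relative of dividing cells, was higher by 2.33 ± 0.42 and 2.90 ± 0.16.

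Of 26 effector and exhaustion factors, 17 of 24 tested were higher and none lower in CD8 cells with a Pdcd1 UMI (median log2 1.17), and 22 of 26 higher and 2 lower in CD4 conventional cells (median 1.15). Tox2, a relative of the exhaustion factor Tox, was higher by 2.20 ± 0.47 and 2.51 ± 0.07, and the 2 lower ones were Runx3 (−0.44 ± 0.08), the CD8 lineage factor, and Id2 (−0.42 ± 0.07), which like Id3 binds E proteins. In Treg 11 of 23 were higher and 1 lower (median 0.37). Of 10 genes of the stem-like cell surface and its ligands, 4 were higher and 2 lower in CD8 cells, and 7 higher and 3 lower in CD4 conventional cells; the shares that were lower were below or near those over all genes. The chemokine gene Xcl1 was higher by 2.78 ± 0.56 and 2.98 ± 0.33, and Il7r, the receptor chain for the survival cytokine IL-7, was lower by −2.86 ± 0.13 and −2.57 ± 0.19. Slamf6, which marks TCF-1 positive exhausted cells, was lower in CD8 cells (−0.51 ± 0.15).

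The genes whose levels were most like each factor were taken over 36 sums, 9 populations by lineage, CD62L and Pdcd1 in 4 libraries, centred per library. These are descriptions over sums that share libraries. Nearest to Tcf7 were Dennd2d (r = 0.93), Nsg2 (r = 0.92) and Mbp (r = 0.89), and nearest to Lef1 Gm43352 (r = 0.97), Pik3ip1 (r = 0.97) and Rps16 (r = 0.96). Bach2 and Foxp1 were the nearest to each other: the genes nearest to Bach2 included Foxp1 (r = 0.97) and Prkcq (r = 0.93), and those nearest to Foxp1 were Bach2 (r = 0.97), Rps27 (r = 0.96) and Klf3 (r = 0.96). Satb1 was nearest to Txk (r = 0.96), Itga6 (r = 0.93) and Npc2 (r = 0.92), Myb to Cmtm7 (r = 0.82), Wnk1 (r = 0.81) and Phgdh (r = 0.79) and Id3, with the weakest likeness, to Rpl24 (r = 0.69), Ndufa6 (r = 0.66) and Lsm14b (r = 0.64). Tcf7 and Lef1 themselves correlated at r = 0.56 over the same sums.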

How the data were processed

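The authors deposited raw UMI counts per gene and barcode of the 4 mRNA libraries, with counts of 4 antibodies in the same matrices, and tables of assembled TCR contigs. The matrices came from Cell Ranger 4.0.0, per the file headers, and the submitters' processing notes name the build mm10 and Seurat, with no role. No aligner for the contigs is given in the sources used here. The members and lists were chosen with earlier results of these data known.

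Barcodes were kept with at least 500 UMIs, 300 genes, 1 UMI of a CD3 gene, at most 8% mitochondrial UMIs and at most 1 TRB chain. Barcodes with 3 or more UMIs of B cell or of myeloid genes were removed, and no doublet caller was run. Cells of 1 library with identical productive TRA and TRB CDR3 nucleotides formed a clone, and cells without a paired receptor are in neither clone group. Counts were summed per population and library where at least 20 cells were found. They were tested in edgeR 4.0.16 (R 4.3.3, limma 3.58.1) with filterByExpr, TMM scaling and a robust quasi-likelihood fit. The replicate was a block because both sides of a comparison come from 1 library; residuals of 67 such pairs correlated by −0.17 to 0.54, 58 of them over 0.1. Adjusted p-values are Benjamini-Hochberg over all genes tested. The fit was first tested on simulated data. Alternatives (19, DESeq2 1.42.0 among them) are in the closing section. The p-values measure the spread between these 4 replicates.

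Named beside the members were, per list and direction, up to 3 genes with the largest called change in the same direction in every library, and the 3 most alike genes by Pearson r of log2(CPM + 1) among genes with a mean of at least 20 CPM. A gene that these rules name is not reported here. Python 3.11.15, numpy 2.4.6, pandas 2.3.3, scipy 1.17.1 and matplotlib 3.10.9 were used for sums and plots.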

Additional observations from a re-analysis of the deposited data

Results flagged for a closer look

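In 133 groups of 4 libraries, the level of each factor in each lineage and the log2 difference per library in each comparison within libraries, a library stood apart 7 times by Dixon's criterion of 0.829, where chance gives about 1 group in 20. In CD4 conventional clones against single cells, Lef1 in replicate 2 was at −3.02, with the nearest library at −2.44. In the same comparison among CD62L-low cells Bach2 in replicate 2 was at −1.55 (nearest −1.18), Satb1 in replicate 4 at −2.07 (nearest −3.11) and Myb in replicate 4 at 0.07 (nearest 0.96). In Treg, CD62L-high against CD62L-low, Bach2 in replicate 1 was at 1.22, with the nearest library at 2.15. With a Pdcd1 UMI among CD62L-low Treg, Bach2 in replicate 1 was at −2.02 (the highest at −0.89), and between CD8 and CD4 conventional cells with a Pdcd1 UMI, Satb1 in replicate 2 was at 1.54 (nearest 0.67). In each of the 7 the library apart had the same sign as the others.

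Effects that differed between lineages by the test of the difference itself (edgeR, 42 tested) numbered 12, each given as the log2 effect of the named lineage minus that of CD4 conventional cells. For CD62L they were Satb1 in CD8 cells at −0.71 and, in Treg, Lef1 at −0.59 and Satb1 at −1.25. For a Pdcd1 UMI they were Myb at −0.66 and Foxp1 at −0.49 in CD8 cells, and Lef1 at 1.48 and Satb1 at 1.80 in Treg. For clones they were Satb1 at 1.31 and Foxp1 at −0.85 in CD8 cells, and Tcf7 at −1.24, Lef1 at 1.15 and Satb1 at 2.70 in Treg. Satb1 accounted for 5 of the 12. The comparisons of Treg and of CD8 cells share their CD4 conventional cells.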

How the results depend on the processing

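Of the log2 values of single factors under the alternatives, 2417 kept direction and side of the threshold, 155 lost the call, 114 gained it and 14 reversed. Lef1, Bach2, Satb1 and Foxp1 kept every call in CD8 and CD4 conventional cells for CD62L, Pdcd1 and clones. The reversals were these. Id3 in CD8 cells was −0.0188 for CD62L and 0.35 for Pdcd1 without barcodes above 2 times the median UMI count, −0.0452 and 0.24 with thinned cells, and for Pdcd1 0.40 without cycling cells and 0.0164 with 1 cell per clonotype. Myb in CD8 cells was −0.55 for Pdcd1 without barcodes above 2 times the median and −0.68 without cycling cells, and −1.30 in CD62L-low cells without cycling cells. Myb against CD4 conventional cells with Pdcd1 was −0.39 (CD8) and −0.63 (Treg) without those barcodes, and −0.26 (CD8) and −0.61 (Treg) without cycling cells. The CD62L effect of Treg on Lef1 was 0.14 with thinned cells. Their cause was not tested.

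Each comparison is named by its cells and its split (Pdcd1 for a Pdcd1 UMI against none, clones for clones against single cells), and an effect of a lineage is its difference from CD4 conventional cells. The number of the 7 factors called was reported as 1 for Treg CD62L-low clones, CD62L effect of CD8, 2 for CD62L effect of Treg, Pdcd1 effect of CD8, Pdcd1 effect of Treg, clone effect of CD8, 3 for clone effect of Treg, 4 for Treg Pdcd1, Treg clones, Treg CD62L-low Pdcd1, 5 for CD8 CD62L-low Pdcd1, CD4 conventional CD62L-low clones, Treg against CD4 conventional cells with Pdcd1, 6 for CD8 against CD4 conventional cells with Pdcd1 and 7 for CD8 Pdcd1. With cells thinned to 1500 UMIs the numbers were 0 for Treg Pdcd1, Treg CD62L-low Pdcd1, Treg CD62L-low clones, CD62L effect of Treg, Pdcd1 effect of CD8, Pdcd1 effect of Treg, 1 for Treg against CD4 conventional cells with Pdcd1, clone effect of CD8, clone effect of Treg, 2 for CD8 against CD4 conventional cells with Pdcd1, 3 for CD8 CD62L-low Pdcd1 and 4 for CD8 Pdcd1. With no low-count filter the numbers were 1 for Pdcd1 effect of CD8, 4 for Treg CD62L-low clones and 7 for Treg Pdcd1. Without barcodes above 2 times the median UMI count the numbers were 0 for Treg CD62L-low Pdcd1, Pdcd1 effect of CD8, 1 for Treg Pdcd1, CD62L effect of Treg, Pdcd1 effect of Treg, clone effect of CD8, 2 for Treg CD62L-low clones, Treg against CD4 conventional cells with Pdcd1 and 3 for CD62L effect of CD8. With clonotypes by TRB alone the numbers were 2 for Treg CD62L-low clones and 7 for Treg clones. With DESeq2 the numbers were 0 for Treg CD62L-low clones, 2 for Treg CD62L-low Pdcd1 and 4 for Pdcd1 effect of CD8. Without cycling cells the numbers were 0 for Treg CD62L-low Pdcd1, 1 for CD62L effect of Treg, Pdcd1 effect of CD8, Pdcd1 effect of Treg, clone effect of CD8, 2 for Treg CD62L-low clones and 3 for CD8 against CD4 conventional cells with Pdcd1, Treg against CD4 conventional cells with Pdcd1, CD62L effect of CD8. With RLE size factors the numbers were 0 for Treg CD62L-low clones. With no exclusion by B cell or myeloid markers the numbers were 1 for Pdcd1 effect of CD8 and 2 for Treg CD62L-low clones. With 1 cell per clonotype the numbers were 0 for Treg CD62L-low clones, CD62L effect of Treg, Pdcd1 effect of CD8 and 1 for clone effect of CD8, clone effect of Treg. With stricter CD4 and CD62L gates the numbers were 0 for Treg CD62L-low clones and 1 for Pdcd1 effect of CD8. Without barcodes with CD11a under 20 the numbers were 0 for Treg CD62L-low clones. With clones of 3 or more the numbers were 2 for Treg CD62L-low clones. With library size only the numbers were 1 for CD62L effect of Treg. Leaving out each library in turn gave 4 to 7 for Treg clones, 3 to 4 for CD8 CD62L-low Pdcd1, 3 to 6 for CD4 conventional CD62L-low clones, 2 to 4 for Treg CD62L-low Pdcd1, 0 to 3 for Treg CD62L-low clones, 1 to 2 for CD62L effect of Treg, 0 to 1 for Pdcd1 effect of CD8, 1 to 3 for Pdcd1 effect of Treg, 1 to 3 for clone effect of Treg.

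The replicate block reflects pairing by library. By DESeq2, Bach2 had no adjusted p in Treg clones and CD62L-low Treg. With no replicate block the numbers were 0 for Treg CD62L-low clones, Pdcd1 effect of CD8, 1 for CD62L effect of Treg, clone effect of CD8, 2 for Treg CD62L-low Pdcd1 and 4 for CD8 Pdcd1, and in the other comparisons the number stayed within 1.5 times.

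Over the alternatives, the number of all genes called ran as follows: 1059 to 4466 (4030 reported) for CD8 CD62L, 578 to 5801 (5409 reported) for CD8 Pdcd1, 1271 to 5603 (5032 reported) for CD8 clones, 2861 to 5475 (5084 reported) for CD4 conventional CD62L, 1588 to 6881 (6337 reported) for CD4 conventional Pdcd1, 2594 to 5885 (5338 reported) for CD4 conventional clones, 157 to 715 (373 reported) for Treg CD62L, 3 to 2353 (2182 reported) for Treg Pdcd1, 119 to 1010 (603 reported) for Treg clones, 261 to 3565 (3252 reported) for CD8 CD62L-low Pdcd1, 666 to 3626 (3236 reported) for CD8 CD62L-low clones, 791 to 5078 (4775 reported) for CD4 conventional CD62L-low Pdcd1, 1195 to 3435 (2958 reported) for CD4 conventional CD62L-low clones, 6 to 906 (669 reported) for Treg CD62L-low Pdcd1, 0 to 210 (11 reported) for Treg CD62L-low clones, 482 to 4572 (4204 reported) for CD8 against CD4 conventional cells with Pdcd1, 78 to 2271 (2007 reported) for Treg against CD4 conventional cells with Pdcd1, 138 to 705 (570 reported) for CD62L effect of CD8, 51 to 604 (582 reported) for Pdcd1 effect of CD8, 221 to 1629 (1415 reported) for clone effect of CD8, 30 to 795 (531 reported) for CD62L effect of Treg, 20 to 1297 (1063 reported) for Pdcd1 effect of Treg, 54 to 1273 (965 reported) for clone effect of Treg. Scaling by library size alone moved the median of all genes by up to −0.16. Treg gave the smallest sums, from as few as 20 cells, and there a difference that missed the threshold was not shown to be absent.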
